A study of Mus musculus with 2 samples.

Results

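The genes described here are 9 genes that mark arterial endothelium and Notch signaling, taken by symbol from the 32285 genes in the deposited matrices. They are the Notch ligands *Dll4* and *Jag1*, the receptors *Notch1* and *Notch4*, the Notch target *Hey1*, the SoxF transcription factor *Sox17*, the gap junction genes *Gja4* and *Gja5*, and *Efnb2*, the gene for ephrin-B2. Their levels were compared across the cell classes of the day 14 postischemic kidney and between the 2 libraries of the study, 1 per genotype. The *Cre-* library came from 1 mouse without Cre. The library labelled PHDTiEC came from 1 mouse carrying *Cdh5-CreERT2* and floxed *Phd1*, *Phd2* and *Phd3* (*Phd1f/f*, *Phd2f/f*, *Phd3f/f*), the genes for the prolyl hydroxylases that mark HIF for degradation. The *Cdh5* promoter drives the tamoxifen-inducible Cre in endothelial cells (ECs) of the whole animal, so recombination is not limited to the kidney. Mice were male per the study's methods and 8 to 10 weeks old, and the kidney was ischemic for 25 minutes. Per the study, tamoxifen was begun after ischemia in both mice, as 4 injections of 3 mg, and induces Cre where it is carried. Whether the *Cre-* mouse carried the floxed alleles is not given in the labels.

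In the arterial program, endothelial Notch receptors are activated by Dll4 and Jag1 on neighboring cells, the cleaved receptor enters the nucleus and binds RBPJ, and genes of the Hey and Hes families are induced. Sox17 acts together with Notch in arterial specification, and ephrin-B2 marks arterial against venous endothelium. *Gja4* encodes connexin 37 and *Gja5* encodes connexin 40, which couple arterial and arteriolar ECs, and connexin 40 is also known from the renin-producing cells of the afferent arteriole. In the kidney, fenestrated peritubular capillaries and ascending vasa recta express *Plvap*, a protein of the fenestral diaphragm, whereas arteries, arterioles and descending vasa recta lack it, and mature glomerular ECs have little of it.

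Promoter sequence was available for 7 of the 9 genes, and 3 are shown because *Gja4*, *Dll4* and *Jag1* are the genes with a promoter in the table whose level was lower in the library labelled PHDTiEC beyond counting error in *Plvap*-zero or *Plvap*-positive endothelium. Each line gives the 250 bases before the annotated start on the gene's strand, from RefSeq on GRCm38.p6, with motif letters in capitals. *Gja4* (ENSMUSG00000050234, minus strand) is shown from chr4:127314040-127314289, *Dll4* (ENSMUSG00000027314, plus strand) from chr2:119325534-119325783, and *Jag1* (ENSMUSG00000027276, minus strand) from chr2:137116521-137116770.
Gja4: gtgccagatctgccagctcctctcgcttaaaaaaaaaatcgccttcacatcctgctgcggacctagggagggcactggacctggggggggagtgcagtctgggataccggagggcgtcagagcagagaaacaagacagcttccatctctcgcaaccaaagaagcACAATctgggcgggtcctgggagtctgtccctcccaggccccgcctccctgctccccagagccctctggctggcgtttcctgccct
Dll4: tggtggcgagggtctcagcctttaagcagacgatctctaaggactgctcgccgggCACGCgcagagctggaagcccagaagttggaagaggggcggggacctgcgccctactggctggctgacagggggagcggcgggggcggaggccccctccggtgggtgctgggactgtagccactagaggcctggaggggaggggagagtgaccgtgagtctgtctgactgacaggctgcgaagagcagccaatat
Jag1: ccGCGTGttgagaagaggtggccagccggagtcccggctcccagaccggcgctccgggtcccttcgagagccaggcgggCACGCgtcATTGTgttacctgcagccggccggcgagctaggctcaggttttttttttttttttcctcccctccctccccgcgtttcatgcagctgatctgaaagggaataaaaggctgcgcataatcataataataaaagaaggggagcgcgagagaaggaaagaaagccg
The letters searched on both strands were TGGGAA for RBPJ, ACGTG or GCGTG for HIF, and ACAAT for SOX factors. In *Gja4* the capitals mark 1 SOX match, 86 to 82 bases before the start. In *Dll4* they mark 1 HIF match on the opposite strand, 195 to 191 bases before the start. In *Jag1* they mark 2 HIF matches and 1 SOX match. The letters for RBPJ were in 0 of the 7 promoters, against 21.6% of the 32851 promoters of this length in the table, while HIF letters were in 3 of the 7 (*Dll4*, *Notch4* and *Jag1*) against 38.6% and SOX letters in 3 of the 7 (*Gja4*, *Notch4* and *Jag1*) against 27.7%. A match is a description of letters only and not a binding site. *Sox17* lies at chr1:4490931-4497354 and *Hey1* at chr3:8663359-8667256, both on the minus strand in GENCODE vM21 on GRCm38, and the other protein-coding genes of the group were matched in the same annotation.

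In total, 136004367 UMIs were counted for *Cre-* and 146758812 for the library labelled PHDTiEC, where 8548 and 9309 barcodes with 500 to 100000 UMIs, at least 200 genes and at most 50% mitochondrial UMIs were kept. The 2 libraries shared 28 of the kept barcodes and 0 of the endothelial ones. ECs (at least 2 UMIs of *Cdh5*, *Pecam1* and *Egfl7* together and no *Ptprc*) numbered 416 and 559, of which 162 and 199 had no *Plvap* UMI and 254 and 360 had at least 1. The floxed genes were not lower in ECs of the library labelled PHDTiEC. *Egln2* (PHD1) was at 37.5 in *Cre-* and 39.5 CPM in the labelled library, *Egln1* (PHD2) at 63.6 and 149 CPM, and *Egln3* (PHD3) at 17.7 and 103 CPM, where CPM is UMIs of the gene per 1000000 UMIs of the class. Counts per gene do not tell a transcript that lacks the floxed exon from a full one, so the deletion itself was not seen. *Bnip3*, a HIF target, was at 46.2 and 181 CPM. Each genotype is 1 library of 1 mouse, so no test was made between them. Intervals are 95% intervals for counting error only and do not cover variation between mice.

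Many endothelial barcodes also held markers of other cells. The paper annotates an EC cluster of these data as ECs that express mesenchymal markers. Whether the barcodes with mural markers are such cells or hold RNA of other cells was not tested. In *Cre-*, 28.8% of ECs had at least 3 UMIs of the mural markers (*Rgs5*, *Myh11*, *Kcnj8*, *Cnn1*) and 22.1% at least 5 UMIs of 1 tubule segment, against 23.8% and 16.8% in the library labelled PHDTiEC. Among *Plvap*-zero ECs the tubule share was 35.2% in *Cre-* and 24.6% in the labelled library, and among *Plvap*-positive ECs it was 13.8% and 12.5%. The 13 tubule markers summed to 2609 and 3188 CPM in *Plvap*-zero ECs and to 1771 and 1322 CPM in *Plvap*-positive ECs. The 4 mural markers summed to 768 and 787 CPM in the former and to 681 and 719.9 CPM in the latter. The 4 fibroblast markers (*Dcn*, *Col1a1*, *Col3a1*, *Pdgfra*) summed to 45.6 and 84.7 CPM in *Plvap*-zero and 97.4 and 195 CPM in *Plvap*-positive ECs, and their part in the results was not tested. Leaving out the barcodes with at least 3 mural or at least 5 tubule segment UMIs left 233 and 362 ECs (75 and 106 *Plvap*-zero, 158 and 256 *Plvap*-positive). They are called marker-free ECs below, although barcodes with fewer of these UMIs or with fibroblast markers stayed in. Differences between the libraries that turned direction between the sets are given for both in *Plvap*-zero and *Plvap*-positive ECs. In the splits of these classes by further markers, 31 of 89 log2 ratios turned. Of these, 1 had an interval clear of 0 in both sets. The text gives both sets for the turned ratios it names. Splits by HIF response are given over all barcodes only. RNA of other cells in a barcode lowers the CPM of the endothelial genes that those cells do not express.

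Each of the 9 genes had its highest level in ECs in both libraries, and 6 of them were low elsewhere, with *Gja4* in mural cells as the exception. *Sox17* was at 214 CPM (198 to 231) in *Plvap*-zero and 722 CPM (696 to 749) in *Plvap*-positive ECs of *Cre-*, and at 234 and 520.04 CPM in the labelled library. Outside the endothelium its highest class level was 1.52 CPM, in the thick ascending limb (TAL) of *Cre-*. No other class came near the endothelial level of this transcription factor.

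*Gja5* was the more restricted of the 2 connexins, at 18.8 and 14.6 CPM in *Plvap*-zero and *Plvap*-positive ECs of *Cre-* and 27.0 and 17.5 CPM in the labelled library. It had 0 UMIs in 1630 tubular cells of *Cre-* and 0 in 1703 of the labelled library, which by an exact Poisson interval allows up to 0.0987 and 0.0914 CPM. Mural cells held 1 and 3 *Gja5* UMIs. *Gja4*, in contrast, had a second site in mural cells, at 31.0 CPM (24.6 to 38.4) in *Cre-* and 24.0 CPM (18.6 to 30.5) in the labelled library, below both endothelial classes (139 and 228 CPM in *Cre-*, 148 and 160.4 CPM in the labelled library). In tubular cells *Gja4* was at 0.375 and 0.273 CPM.

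*Dll4*, an endothelial Notch ligand, was at 47.3 CPM (39.8 to 55.8) in *Plvap*-zero and 74.6 CPM (66.4 to 83.5) in *Plvap*-positive ECs of *Cre-*. Its next class was the intercalated cell (IC), with 7.59 CPM (5.52 to 10.2) in *Cre-* and 6.35 CPM (4.31 to 9.01) in the labelled library. Barcodes under 100 UMIs held *Dll4* at 7.25 and 5.59 CPM, which is its share of free RNA and not the amount free RNA adds to a cell. *Sox17*, at 24.2 and 21.9 CPM in those barcodes, was at 0.690 and 1.23 CPM in IC. The part of free RNA in the *Dll4* level of IC was not tested. The IC intervals lay above those of the other 5 tubular classes in both libraries, and the lowest of these was the proximal tubule (PT), with 2 and 1 *Dll4* UMIs. *Notch4*, the receptor largely limited to endothelium, was at 32.6 and 63.7 CPM in the 2 endothelial classes of *Cre-* and at 41.4 and 74.8 CPM in the labelled library, and at most at 3.40 CPM elsewhere. *Hey1* was at 14.4 and 15.6 CPM in *Cre-* and 25.3 and 17.5 CPM in the labelled library. Outside ECs *Hey1* reached 2.26 and 6.19 CPM in mural cells and was otherwise at or under 1.66 CPM.

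The other 3 genes, called the broad genes below, had UMIs in every class. In several classes their level was near or under that in barcodes under 100 UMIs (given below). *Jag1* in *Cre-* was highest in *Plvap*-zero ECs (171 CPM, 157 to 187), followed by *Plvap*-positive ECs (121 CPM, 110.2 to 132) and mural cells (61.1 CPM, 52.1 to 71.3). IC (53.1), injured PT (49.1), TAL (46.0) and fibroblasts (45.7 CPM) came next, with intervals that overlapped, and PT was lowest at 8.76 CPM. *Notch1* in *Cre-* was highest in *Plvap*-positive ECs (189 CPM). *Plvap*-zero ECs (84.2 CPM, 74.1 to 95.3) and the distal convoluted tubule, DCT (74.2 CPM, 64.7 to 84.7), overlapped for *Notch1*, and PT (6.21 CPM) and injured PT (2.47 CPM) were lowest. *Efnb2* in *Cre-* was at 157 CPM in *Plvap*-positive and 87.6 CPM in *Plvap*-zero ECs, and its highest tubular level was in the collecting duct (CD), at 67.2 CPM (59.3 to 76.0). For *Efnb2*, TAL (11.2 CPM) and PT (10.9 CPM) overlapped, and DCT was lowest at 2.71 CPM.

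**Figure D1:**
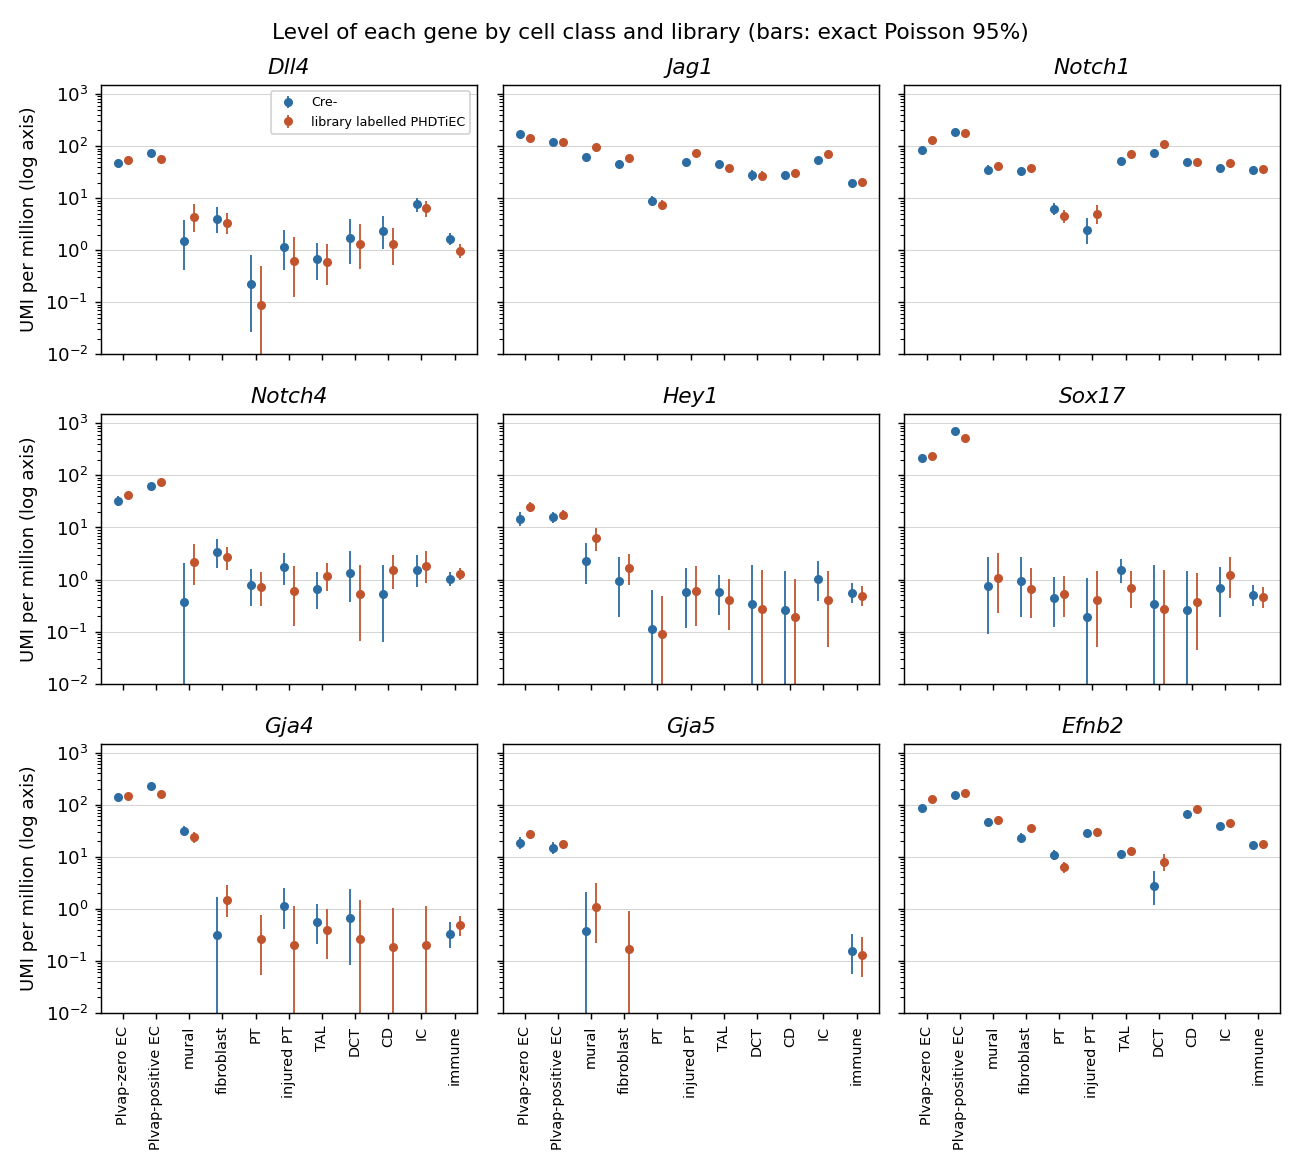
Level of each gene (CPM, log axis) in 11 cell classes, Cre- in blue and the library labelled PHDTiEC in orange, with exact Poisson 95% bars. A class with 0 UMIs has no point, as Gja5 in every tubular class, and bars that reach the lower edge go below it. Sox17, Gja5, Dll4, Notch4 and Hey1 stand out in the 2 endothelial classes alone, whereas Jag1, Notch1 and Efnb2 are measured in most classes.

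Background from free RNA was measured in immune cells and in near-empty barcodes. In immune cells, which should lack the endothelial genes, a *Sox17* UMI was seen in 0.511% of cells in *Cre-* and 0.552% in the labelled library (median 7168 and 7442 UMIs per cell), against 74.0% (68.2% to 79.3%) and 66.1% (61.0% to 71.0%) of *Plvap*-positive ECs (median 10568 and 9364.5 UMIs). After thinning each cell to 2000 UMIs, which left out 13 and 26 shallower *Plvap*-positive ECs, the shares were 54.8% and 50%, with intervals that overlapped (48.3% to 61.2% and 44.5% to 55.5%). For *Gja4* the thinned shares of *Plvap*-positive ECs were 27.8% and 26.9%, for *Dll4* 12.0% and 10.8%, and for *Notch1* 33.6% and 26.9%. The unthinned shares were 59.1% and 49.2% for *Gja4*, 47.2% and 34.4% for *Dll4*, and 72.8% and 67.2% for *Notch1*. A difference between the libraries in the share of cells with a UMI was thus not detectable for these genes at a matched 2000 UMIs. *Notch1* was found in 22.1% and 24.3% of immune cells, *Jag1* in 9.80% and 10.6%, and *Efnb2* in 6.55% and 5.94%. Barcodes under 100 UMIs held *Sox17* at 24.2 and 21.9 CPM, *Jag1* at 48.1 and 48.5 CPM, *Notch1* at 33.0 and 30.9 CPM and *Efnb2* at 23.2 and 34.8 CPM, and the other 5 genes at or under 9.04 CPM. The levels of the 3 broad genes in several classes lay near or under these values. This held for *Notch1* in fibroblasts (32.7 and 38.1 CPM) and *Jag1* in TAL (46.0 and 38.1 CPM). It also held for *Efnb2* in fibroblasts (23.2 and 35.1 CPM) and TAL (11.2 and 13.0 CPM). Values in near-empty barcodes are shares of free RNA and not the amount it adds to a cell. *Sox17* was at 0.926 and 0.663 CPM in fibroblasts and at 1.52 and 0.693 CPM in TAL. The part of free RNA in the levels of the broad genes was not tested.

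The first comparison asked whether the genes follow the arterial label, that is, whether they are higher in ECs without *Plvap*. Over all ECs they did not do so as a group. In *Cre-*, *Sox17* was 3.37 times, *Notch1* 2.24 times, *Notch4* 1.96 times, *Efnb2* 1.79 times, *Gja4* 1.63 times and *Dll4* 1.58 times as high in *Plvap*-positive as in *Plvap*-zero ECs. In the labelled library *Sox17* was 2.22 times, *Notch4* 1.81 times, *Notch1* 1.38 times and *Efnb2* 1.30 times as high, while *Gja4* (1.09) and *Dll4* (1.02) had intervals that included no difference. *Gja5* (0.647) and *Hey1* (0.692) were lower in *Plvap*-positive ECs of the labelled library beyond counting error. *Jag1* was the 1 gene with a higher level in *Plvap*-zero ECs beyond counting error in both libraries, with positive over zero at 0.704 and 0.843.

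In marker-free ECs the order was different. *Gja5* was 2.38-fold (1.26 to 4.43) higher in *Plvap*-zero than in *Plvap*-positive ECs of *Cre-* and 3.90-fold (2.55 to 5.99) higher in the labelled library. *Jag1* was 2.17-fold (1.71 to 2.74) and 1.92-fold (1.54 to 2.38) higher, and *Dll4* 1.93-fold (1.41 to 2.61) and 1.84-fold (1.39 to 2.41) higher. *Gja4* was 1.28-fold (1.06 to 1.56) higher in *Cre-* and 1.87-fold (1.60 to 2.18) higher in the labelled library. These 4 genes, 2 connexins and 2 Notch ligands, followed the label. For *Hey1* the fold was 1.86 (0.974 to 3.44) in *Cre-* and 2.96 (1.83 to 4.76) in the labelled library. The intervals for *Notch1* and *Notch4* included 1 in both libraries, and *Efnb2* was at 1.16 (0.921 to 1.46) and 1.25 (1.05 to 1.48). *Sox17* went against the label in both sets and both libraries, at 0.671 (0.586 to 0.765) in *Cre-* and 0.724 (0.648 to 0.808) in the labelled library. Median depth in marker-free ECs was 3228 and 4638.5 UMIs for *Plvap*-zero and 5725 and 5906 UMIs for *Plvap*-positive cells, so shallow cells can be *Plvap*-zero by chance, and the part of this in the folds was not tested.

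**Figure D2:**
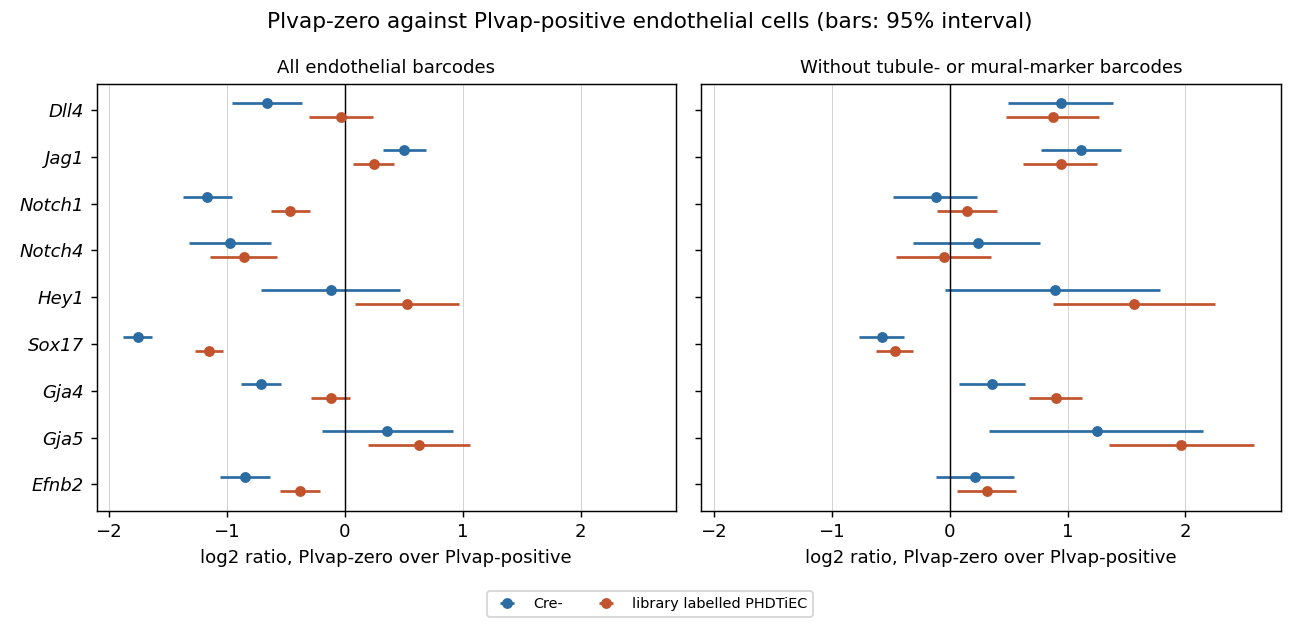
Level in Plvap-zero over Plvap-positive endothelial cells (log2 ratio of CPM, 95% counting intervals) for each gene, Cre- in blue and the library labelled PHDTiEC in orange, over all endothelial barcodes (left) and without barcodes holding tubule or mural markers (right). On the right Gja5, Jag1, Dll4 and Gja4 lie above 0 in both libraries and Sox17 lies below 0 in both.

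The second comparison asked how the genes differed between the libraries in *Plvap*-positive ECs. *Sox17*, *Gja4* and *Dll4* were lower in the library labelled PHDTiEC. *Sox17* differed by -0.47 on the log2 scale (-0.55 to -0.40), from 722 CPM in *Cre-* to 520.04 CPM in the labelled library. *Gja4* was at 228 and 160.4 CPM, a log2 ratio of -0.50 (-0.64 to -0.37). *Dll4* was at 74.6 and 56.5 CPM, a log2 ratio of -0.40 (-0.64 to -0.16). This order of libraries held for transcription factor, connexin and ligand in marker-free ECs, with log2 ratios of -0.33 (-0.44 to -0.23), -0.52 (-0.73 to -0.32) and -0.42 (-0.78 to -0.06). Of the 7 general endothelial markers, *Cldn5*, a tight junction gene, was lower by more than these 3 genes, at 528 and 317 CPM (-0.74, -0.83 to -0.64) and by -1.02 on the log2 scale in marker-free ECs, while the median of the 7 was 0.02 and 0.08.

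For the receptors, the target, the ephrin and *Gja5* the interval included 0 or the direction was opposite in *Plvap*-positive ECs. *Notch1* was at 189 and 179 CPM, a log2 ratio of -0.07 (-0.21 to 0.07), and -0.03 (-0.24 to 0.18) in marker-free ECs. *Notch4* was at 63.7 and 74.8 CPM, a log2 ratio of 0.23, with a lower bound just above 0 over all ECs and an interval of -0.08 to 0.59 in marker-free ECs. *Efnb2* was at 157 and 169 CPM, a log2 ratio of 0.10 (-0.05 to 0.25), and at 216 and 208 CPM in marker-free ECs (-0.06, -0.27 to 0.16). *Gja5* (14.6 and 17.5 CPM) and *Hey1* (15.6 and 17.5 CPM) had log2 ratios of 0.26 (-0.23 to 0.76) and 0.16 (-0.32 to 0.65), and both intervals included 0. In marker-free ECs both turned direction, *Gja5* to -0.11 (-0.85 to 0.65) and *Hey1* to -0.42 (-1.14 to 0.31), again with intervals that included 0. *Jag1* had an interval clear of 0 in marker-free ECs only. It was at 121 and 119.6 CPM over all ECs (-0.01, -0.19 to 0.16) and at 136 and 99.0 CPM in marker-free ECs (-0.45, -0.74 to -0.16).

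No gene of the 9 reached a 1.5-fold difference in *Plvap*-positive ECs, the size used here to count genes among those with at least 50 UMIs over both libraries. The count was 0 of 9 higher, against 5.09% of 10745 genes, and 0 of 9 lower, against 3.03%. The median log2 ratio of the 9 genes was -0.01, against 0.02 over all genes. In marker-free ECs it was -0.33, against 0.04 over all genes. A lower class sum can come from less RNA per cell or from another mix of ECs within the class, and these cannot be told apart here.

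Per cell, *Sox17* was lower at the median and the upper quartile of *Plvap*-positive ECs in the labelled library, and the lower quartile was 0 in both. The median was 5.02 UMIs per 10000 in *Cre-* and 2.80 in the labelled library, and the upper quartile was 11.5 and 7.82. The cell with the most *Sox17* UMIs held 2.44% and 3.14% of the class sum. For *Gja4* the median was 0.915 in *Cre-* and 0 in the labelled library, and the upper quartile 2.96 and 1.96.

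**Figure D3:**
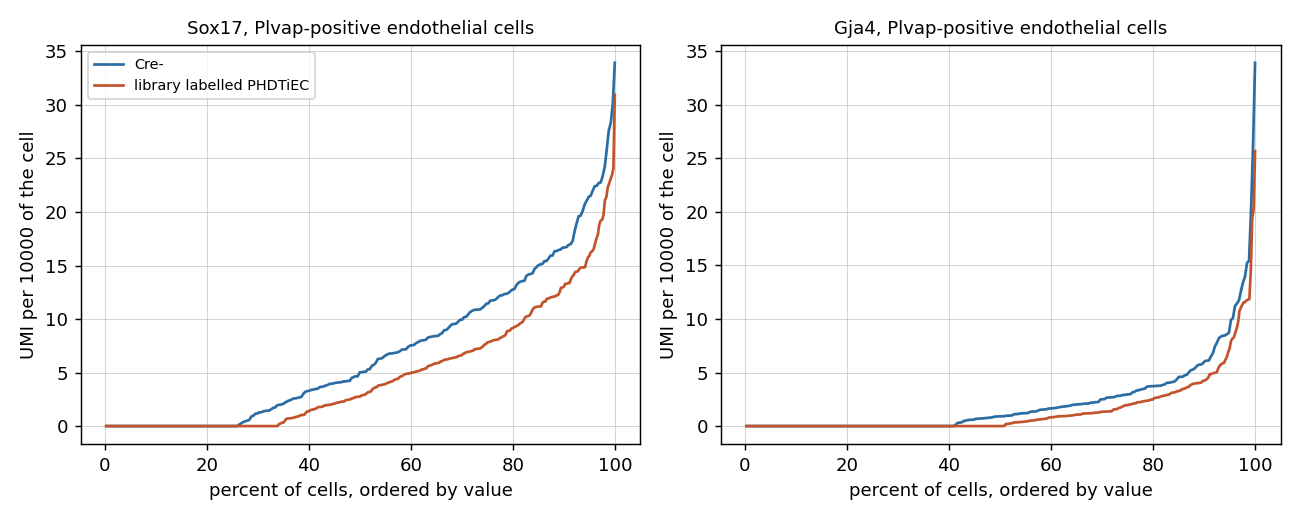
UMI per 10000 of the cell for Sox17 (left) and Gja4 (right) in the Plvap-positive endothelial cells of each library, with the cells ordered from lowest to highest and shown as percent of the class (254 cells in Cre-, blue, and 360 in the library labelled PHDTiEC, orange). The Cre- curve lies above the other along the range in which cells have UMIs, with medians of 5.02 and 2.80 for Sox17.

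A pair of markers split the *Plvap*-positive ECs further. *Gpihbp1*, a capillary gene that carries lipoprotein lipase, was detected in 51.6% and 51.7% of them. *Sox17* was lower in the labelled library with and without a *Gpihbp1* UMI (log2 ratios of -0.44 and -0.50), also in marker-free ECs (-0.39 and -0.28). *Gja4* had log2 ratios of -0.17 with and -0.67 without *Gpihbp1*, and *Dll4* had -0.59 and -0.23. In marker-free ECs (80 and 140 with *Gpihbp1*, 78 and 116 without) both genes were lower without it, *Gja4* at -0.88 and *Dll4* at -0.92, whereas with it *Gja4* was higher, at 138 and 181 CPM (0.39, 0.01 to 0.78), and the interval of *Dll4* included 0 (0.15, -0.41 to 0.74). The second marker, *Slc14a1*, encodes the urea transporter of descending vasa recta and was seen in 18 and 20 *Plvap*-positive ECs. In these few cells *Sox17* was at 848 and 1032 CPM (log2 ratio 0.28, 0.08 to 0.49) and *Gja4* at 382 and 379 CPM. *Sox17* turned in the 5 and 16 marker-free cells among them, at 1265 and 1093 CPM (-0.21, -0.51 to 0.09). *Gja4* was at 560 and 415 CPM there (-0.43, -0.90 to 0.04). In the *Slc14a1*-zero remainder *Sox17* was at 707 and 477 CPM (-0.57, -0.65 to -0.49), and in its marker-free cells at 938 and 719 CPM (-0.38, -0.50 to -0.27).

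Splits by HIF response are given as a description, since the genes that make them were themselves higher in the labelled library and each side then holds differently chosen cells of the libraries. A sum of 7 HIF-responsive genes (*Bnip3*, *Ankrd37*, *Pgf*, *Ndufa4l2*, *Egln3*, *Adm*, *Ak4*) was at or over 3 UMIs in 29.9% of *Plvap*-positive ECs of *Cre-* and 46.1% of those of the labelled library. *Sox17* was lower in the labelled library on both sides of that value, with log2 ratios of -0.60 (-0.73 to -0.48) below and -0.34 (-0.44 to -0.24) above. With the value set at 3 UMIs per 10000 of the cell, 13.8% and 43.3% of cells were at or above it, and the log2 ratios were -0.85 (-0.96 to -0.75) below and -0.07 (-0.23 to 0.09) above. *Gja4* was lower on both sides of both splits, by -0.34 and -0.48 on the log2 scale for the sum and by -0.39 and -0.68 for the sum per 10000. Between 2 and 4 per 10000 lay 44 and 43 cells, and the low side of that split had a median of 10056 UMIs in *Cre-* and 6300 UMIs in the labelled library, so where in the class the *Sox17* difference lies cannot be told from these splits.

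The third comparison took the *Plvap*-zero ECs. Over all of them, *Notch1*, *Efnb2* and *Hey1* were higher and *Jag1* lower in the library labelled PHDTiEC. *Notch1* was at 84.2 and 130.2 CPM, a log2 ratio of 0.63 (0.40 to 0.86), and *Hey1* at 14.4 and 25.3 CPM, a log2 ratio of 0.81 (0.26 to 1.37). *Efnb2* was at 87.6 and 129.9 CPM, a log2 ratio of 0.57 (0.34 to 0.80). *Jag1* was at 171 and 142 CPM, a log2 ratio of -0.27 (-0.45 to -0.09). *Gja5*, at 18.8 and 27.0 CPM, had 0.52 (0.03 to 1.03). *Sox17*, *Gja4*, *Dll4* and *Notch4* had intervals that included 0. The count past 1.5-fold was 2 of 9 higher (*Notch1* and *Hey1*), against 5.85% of 9986 genes, and 0 of 9 lower, against 3.74%. In marker-free cells *Notch1* and *Hey1* were not past it. Of the 9 genes only *Gja5* (0.60) was past it higher there and only *Jag1* (-0.63) lower, against 8.2% and 5.61% of 3636 genes.

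General endothelial genes were also higher in these cells, 6 of 7 of them by direction, of which *Tie1* had an interval that included 0 (0.19, -0.06 to 0.45). The median log2 ratio of 7 endothelial markers (*Cdh5*, *Pecam1*, *Egfl7*, *Cldn5*, *Emcn*, *Tie1*, *Kdr*), 3 of which defined the class, was 0.58 over all *Plvap*-zero ECs and 0.07 in marker-free ones, that of the 4 markers outside the class rule was 0.39 and -0.05, and the median of the 9 genes was 0.35 and 0.02. In marker-free *Plvap*-zero ECs *Notch1* was at 209 and 245 CPM (0.23, -0.15 to 0.62), *Hey1* at 42.6 and 50.7 CPM (0.25, -0.61 to 1.15) and *Efnb2* at 251 and 259 CPM (0.04, -0.31 to 0.40). For the receptor, its target and the ephrin the interval thus included 0 once the barcodes with tubule or mural markers were left out. *Jag1* was lower in marker-free cells as well, at 294 and 190.03 CPM (-0.63, -0.99 to -0.27). *Dll4* changed direction, from 47.3 and 55.3 CPM over all *Plvap*-zero ECs (0.22, -0.10 to 0.55) to 168 and 119.6 CPM in marker-free ones (-0.49, -0.96 to -0.02). *Gja4* was at 360.2 and 365 CPM there (0.02, -0.28 to 0.32) and *Gja5* at 47.4 and 71.8 CPM (0.60, -0.17 to 1.42). *Sox17* turned from 0.13 (-0.02 to 0.28) to -0.22 (-0.45 to 0.01) and *Notch4* from 0.35 to -0.04 (-0.61 to 0.55). Over all marker-free ECs both Notch ligands were lower in the labelled library, *Dll4* at 107 and 77.8 CPM (-0.46, -0.74 to -0.17) and *Jag1* at 174 and 120.2 CPM (-0.54, -0.76 to -0.31), while *Notch1* was at 222 and 227 CPM (0.03, -0.15 to 0.22).

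**Figure D4:**
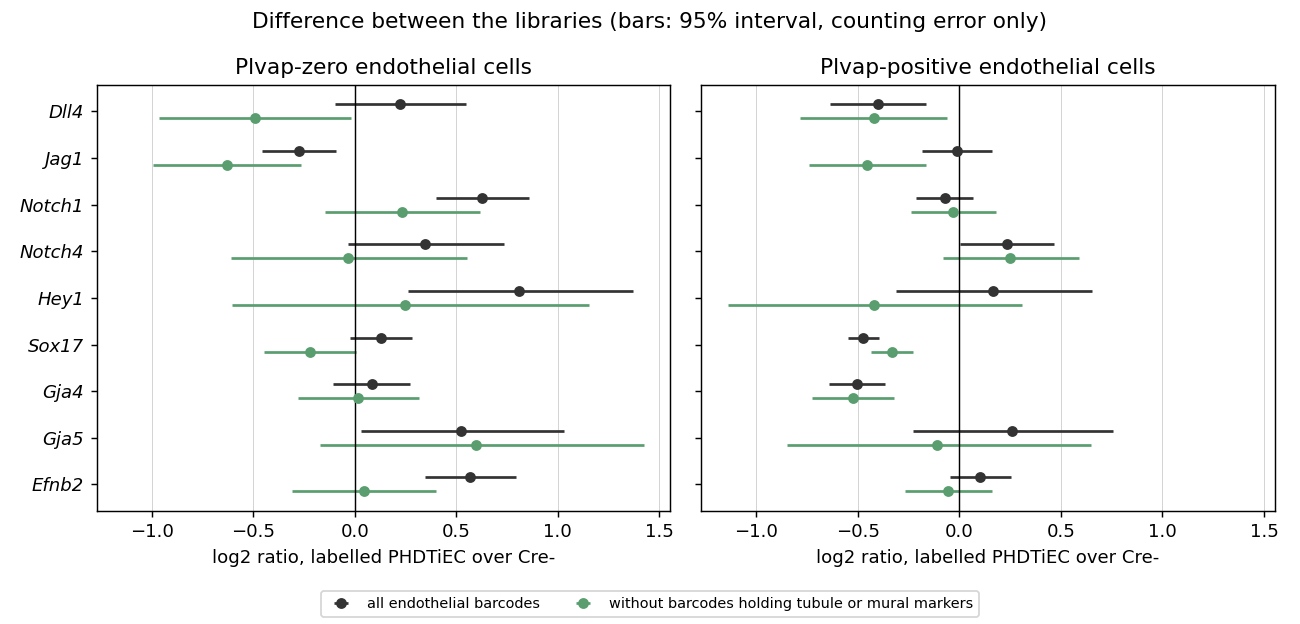
Log2 ratio of the library labelled PHDTiEC over Cre- for each gene in Plvap-zero (left) and Plvap-positive (right) endothelial cells, with 95% counting intervals, over all endothelial barcodes (dark) and without those holding tubule or mural markers (green). Sox17, Gja4 and Dll4 lie below 0 on the right in both sets, and the positive values of Notch1, Hey1 and Efnb2 on the left move toward 0 in the green set.

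Within *Plvap*-zero ECs, *Slc14a1* marked 10 and 13 cells and *Ehd3*, a gene of glomerular ECs, 29 and 48. *Gja5* was at 153 and 187 CPM in the *Slc14a1*-positive cells and at 10.01 and 20.2 CPM in the remainder. *Sox17* was at 431 and 612 CPM in the *Slc14a1*-positive cells, against 199.9 and 218 CPM (log2 ratios between the libraries of 0.51, 0.05 to 0.97, and 0.13, -0.04 to 0.29). Both genes were thus higher where the descending vasa recta marker was found, in each library. Only 4 and 8 marker-free cells had *Slc14a1*, with 3 and 20 *Gja5* UMIs (78.2 and 294 CPM), against 44.3 and 48.3 CPM in the marker-free remainder, so the order is not resolved in *Cre-* there. *Sox17* was at 886 and 824 CPM in these marker-free cells and at 623 and 526 CPM in their remainder, and both differences between the libraries turned, to -0.10 (-0.74 to 0.56) and -0.24 (-0.49 to 0.001). In *Ehd3*-positive cells *Jag1* was at 236 and 104 CPM (log2 ratio -1.18, -1.53 to -0.84), and in *Ehd3*-zero cells at 150.2 and 162 CPM (0.11, -0.11 to 0.33). *Sox17* and *Gja4* were lower in the labelled library among *Ehd3*-positive cells (-0.66, -0.99 to -0.33, and -0.91, -1.35 to -0.48) and higher among *Ehd3*-zero cells (0.42, 0.25 to 0.59, and 0.42, 0.20 to 0.63). Of the marker-free cells, 11 and 20 had *Ehd3* and 64 and 86 did not. There *Jag1* was lower on both sides, with 21 and 3 UMIs in *Ehd3*-positive cells (177 and 17.3 CPM, log2 ratio -3.36, -5.75 to -1.61) and 339 and 246 CPM in *Ehd3*-zero cells (-0.46, -0.85 to -0.08). *Sox17* among marker-free *Ehd3*-zero cells was at 787 and 650 CPM (-0.28, -0.52 to -0.03) and *Gja4* at 444 and 417 CPM (-0.09, -0.41 to 0.23), both opposite in direction to the values over all barcodes. In marker-free *Ehd3*-positive cells the intervals of *Sox17* (-0.15, -0.82 to 0.54) and *Gja4* (0.49, -0.38 to 1.42) included 0. Over all barcodes, *Ehd3*-positive cells had median depths of 18434 and 16523.5 UMIs, over those of the others (9173 and 7908).

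*Gja5* was found in 52 of 416 ECs of *Cre-* (12.5%) and 80 of 559 of the labelled library (14.3%), and the other 8 genes were all higher in these cells than in ECs without it. By ratio, *Hey1* differed most, at 45.2 CPM with and 9.88 CPM without *Gja5* in *Cre-* and at 85.1 and 9.89 CPM in the labelled library. *Gja4* was at 404 and 153 CPM in *Cre-* and 488 and 100.3 CPM in the labelled library, and *Dll4* at 141 and 49.4 CPM in *Cre-* and 153 and 40.0 CPM in the labelled library. *Jag1*, at 275 and 119.2 CPM in *Cre-* and 304 and 99.3 CPM in the labelled library, showed the same order. Between the libraries, *Jag1* in ECs with *Gja5* turned from 0.15 (-0.08 to 0.37) to -0.43 (-0.81 to -0.04) in marker-free ECs, at 372 and 277 CPM, and *Dll4* from 0.11 (-0.20 to 0.44) to -0.19 (-0.67 to 0.29), at 220.1 and 193 CPM. *Sox17* was at 614 and 488 CPM in *Cre-* and 551 and 383 CPM in the labelled library. In marker-free ECs 7 of the 8 genes kept this order in both libraries, while *Sox17* was at 871 CPM with and 890.3 CPM without *Gja5* in *Cre-* and at 812 and 701 CPM in the labelled library. These cells carried little *Plvap* (84.6 and 84.3 CPM, against 324 and 370.1 CPM) and more *Slc14a1* (178 and 68.7 CPM, against 6.86 and 5.83 CPM). They were also deeper (median 19583 and 13291 UMIs, against 9385.5 and 8191) and held more *Myh11*, a smooth muscle gene (402 and 513 CPM, against 169.9 and 179 CPM).

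The *Gja5* split also separated the library differences. *Gja4* was lower in the labelled library among ECs without *Gja5* (log2 ratio -0.61, -0.75 to -0.47) and higher among ECs with it (0.27, 0.09 to 0.46). *Hey1* was higher in the labelled library among ECs with *Gja5* (0.91, 0.40 to 1.44) and close to equal among ECs without it (0.002, -0.51 to 0.52). In marker-free ECs, where 23 and 43 cells held *Gja5*, *Gja4* was at 524 and 761 CPM with *Gja5* (log2 ratio 0.54, 0.26 to 0.82) and at 251 and 149 CPM without it (-0.75, -0.96 to -0.54). *Hey1* was at 97.1 and 119.8 CPM with *Gja5* in marker-free ECs (0.30, -0.38 to 1.00) and at 12.7 and 9.55 CPM without it (-0.41, -1.34 to 0.55). In the marker-free ECs with *Gja5* the glomerular EC gene *Ehd3* had 5 and 186 UMIs, at 16.2 and 437 CPM (4.75, 3.51 to 6.39). *Plvap* was at 97.1 and 176 CPM there (0.86, 0.23 to 1.52). How many of these cells held the *Ehd3* UMIs was not counted, and the part of a different mix of cells in the *Gja4* value was not tested. Cells with *Gja5* were chosen by 1 of the 9 genes, so these values are a description.

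**Figure D5:**
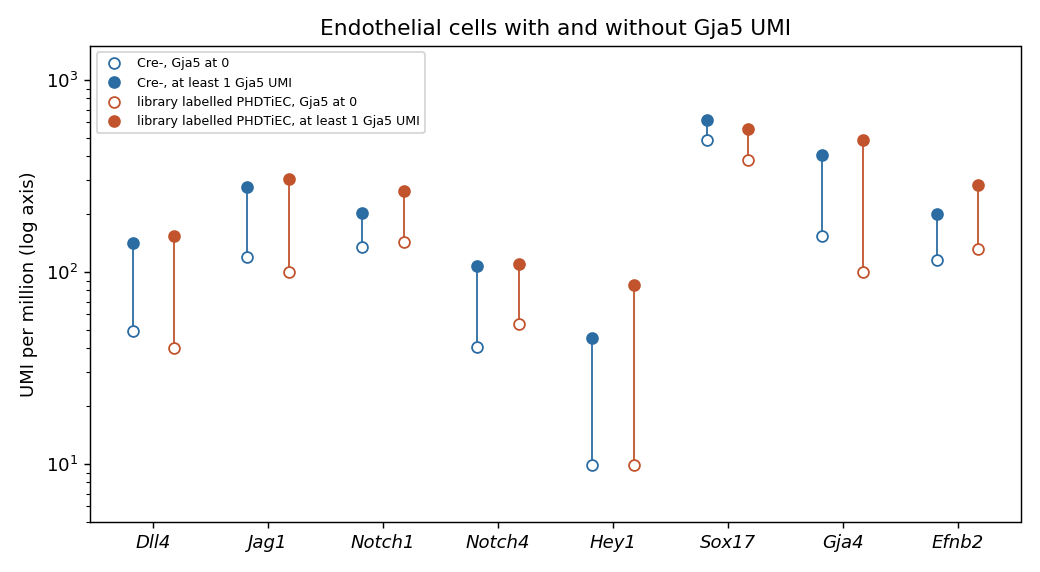
Level of the other 8 genes (CPM, log axis) over all endothelial barcodes, in cells with no Gja5 UMI (open points) and with at least 1 (filled points), Cre- in blue and the library labelled PHDTiEC in orange. In each library all 8 genes are higher in the cells with Gja5, and the gap is widest for Hey1, from 9.88 to 45.2 in Cre- and from 9.89 to 85.1 in the labelled library.

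In mural cells (176 and 178), 4 of the 9 genes had at least 50 UMIs over both libraries. *Jag1* was at 61.1 CPM in *Cre-* and 98.2 CPM in the labelled library, a log2 ratio of 0.68 (0.40 to 0.97). *Gja4* (-0.37, -0.86 to 0.12), *Notch1* (0.21, -0.20 to 0.62) and *Efnb2* (0.12, -0.24 to 0.49) had intervals that included 0. *Jag1*, which smooth muscle cells use to relay Notch signals among themselves, was thus the 1 of 4 past 1.5-fold, against 7.73% of 9346 genes, and 0 of 4 were lower, against 4.99%. In the same cells the mural Notch target *Heyl* was at 26.0 and 48.4 CPM (0.89, 0.46 to 1.33), *Lfng*, a glycosyltransferase that modifies Notch, at 4.15 and 18.2 CPM, and *Nrarp*, a feedback inhibitor, at 36.6 and 14.6 CPM (-1.33, -1.90 to -0.79).

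In tubular cells (1630 and 1703), 6 of the 9 genes had at least 50 UMIs, and 0 of 6 were past 1.5-fold higher or lower, against 2.79% and 2.75% of 14092 genes. By segment, *Notch1* was at 51.6 and 71.2 CPM in TAL (0.46, 0.30 to 0.63), 74.2 and 111.3 CPM in DCT (0.59, 0.35 to 0.83), and 37.8 and 46.5 CPM in IC (0.30, 0.03 to 0.57), but at 49.97 and 49.6 CPM in CD. *Jag1* was at 49.1 and 74.2 CPM in injured PT (0.60, 0.36 to 0.83) and 53.1 and 69.4 CPM in IC (0.39, 0.16 to 0.61), and at 46.0 and 38.1 CPM in TAL (-0.27, -0.47 to -0.07). In IC of *Cre-* both genes lay near their level in barcodes under 100 UMIs (33.0 CPM for *Notch1* and 48.1 CPM for *Jag1*). *Jag1* also lay near that level in injured PT of *Cre-*. In TAL it lay under it in both libraries (48.1 and 48.5 CPM in these barcodes). The part of free RNA in these *Notch1* and *Jag1* levels was not tested. *Efnb2* was lower in PT, at 10.9 and 6.24 CPM (-0.80, -1.26 to -0.35), and higher in CD, at 67.2 and 82.8 CPM (0.30, 0.07 to 0.53), and in DCT, where it had 8 and 29 UMIs (1.52, 0.36 to 2.86). Its intervals in injured PT, TAL and IC included 0. The PT and DCT levels lie below those of *Efnb2* in barcodes under 100 UMIs (23.2 and 34.8 CPM), and the part of free RNA in these class sums was not tested. *Hes1*, a Notch target also induced by other signals, was at 323 and 502 CPM over all tubular cells (0.64, 0.60 to 0.67), whereas the targets *Heyl*, at 4.87 and 3.05 CPM (-0.68, -1.02 to -0.34), and *Nrarp*, at 4.79 and 4.19 CPM (-0.19, -0.51 to 0.12), were lower or had an interval that included 0.

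The other genes of the pathway lists (ligands, receptors, cleavage enzymes, nuclear partners, targets, glycosyltransferases, SoxF, connexins, ephrins and arterial and venous markers) numbered 43. In *Plvap*-positive ECs, 1 of 41 measured genes was past 1.5-fold higher (*Ncstn*, a γ-secretase subunit, 44.9 and 68.5 CPM) and 1 lower (*Cxcr4*, the CXCL12 receptor, 17.1 and 11.2 CPM), against 5.09% and 3.03% of all genes, and their median log2 ratio was 0.05. In marker-free ECs 3 of 36 were higher (*Unc5b*, *Maml1* and *Nrp2*) and 4 lower (*Vegfc*, *Cxcr4*, *Psen2* and *Sox18*), against 7.22% and 3.58% of 7606 genes. *Ncstn* was not past 1.5-fold there (0.27, -0.19 to 0.75). The largest differences there were those of *Unc5b* (0.98, 0.50 to 1.48) and *Vegfc* (-1.19, -1.54 to -0.83). *Sox18*, a SoxF relative of *Sox17*, was lower as well, at 202 and 138 CPM (-0.55, -0.70 to -0.40) and by -0.67 on the log2 scale in marker-free ECs, whereas the third SoxF gene *Sox7* was at 41.6 and 48.1 CPM (0.21, -0.08 to 0.50) and at -0.14 (-0.52 to 0.26) in marker-free ECs. The venous list had no common direction. Its regulator *Nr2f2* was at 190.4 and 134 CPM over all barcodes (-0.50, -0.65 to -0.35) and at 79.7 and 99.4 CPM in marker-free ECs (0.32, -0.02 to 0.67). *Nrp2* was higher in the labelled library, at 71.6 and 101 CPM (0.50, 0.29 to 0.71), and *Ephb4* was at 46.9 and 41.5 CPM (-0.17, -0.46 to 0.12). *Gja1*, which encodes connexin 43, was at 62.7 and 91.5 CPM (0.55, 0.32 to 0.77), the opposite direction to *Gja4*.

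In *Plvap*-zero ECs, 9 of 40 measured genes of the lists were past 1.5-fold higher and 0 lower, against 5.85% and 3.74% of all genes. Their median log2 ratio was 0.36, against 0.05 over all genes and 0.39 for the 4 endothelial markers outside the class rule. They were *Dll1*, *Ncstn*, *Sox7*, *Ephb4*, *Bmx*, *Nrp1*, *Unc5b*, *Cxcr4* and *Nrp2*, with log2 ratios from 0.60 (*Nrp1* and *Unc5b*) to 1.13 (*Dll1*). These include the venous genes *Ephb4*, the ephrin-B2 receptor, at 18.5 and 35.3 CPM, and *Nrp2*, at 13.8 and 21.8 CPM. In marker-free *Plvap*-zero ECs 2 of 25 measured genes were higher, *Bmx* at 85.3 and 144 CPM (0.75, 0.19 to 1.34) and *Psen2* at 45.0 and 67.6 CPM (0.59, -0.21 to 1.43), and 1 was lower, *Vegfc* at 187 and 114 CPM (-0.72, -1.18 to -0.25), against 8.2% and 5.61% of 3636 genes. Their median was 0.21 there. In mural cells 4 of 30 were higher and 2 lower, against 7.73% and 4.99% of all genes, and in tubular cells 2 of 36 were higher and 1 lower, against 2.79% and 2.75%.

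Across 11 classes in 2 libraries (22 points, 8437 genes screened), the genes with the pattern most like each of the 9 were found by Pearson's r of log2(CPM + 1). For *Sox17* they were *Myct1* and *Sox18* (r of 0.996 and 0.996), for *Gja4* *Syt15* and *Galnt15* (0.984 and 0.983), and for *Gja5* *Kdr* and *Cldn5* (0.988 and 0.986). For *Dll4* they were *Msx1* and *Mmrn2* (0.990 and 0.949) and for *Notch4* *Tek* and *She* (0.983 and 0.982). *Hey1* was most like *Syt15* and *Sema3g* (0.971 and 0.970). The broad genes had weaker partners, *Syt11* and *Rassf9* for *Notch1* (0.944 and 0.944), *Tead2* and *Tcf3* for *Jag1* (0.939 and 0.937), and *Znrd1* and *Gprc5b* for *Efnb2* (0.921 and 0.920). The points share libraries and depth, and the 22 points hold both ECs and all other classes, so r was not measured within ECs alone.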

How the data were processed

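Reads from the 10X Genomics Chromium 3′ kit were processed by the authors with Cell Ranger 4 against mm10, and the deposited counts are unfiltered, unnormalized UMI totals of each gene in each barcode. UMI counts of each gene were summed here per class and library and divided by the class total (CPM). Classes came from marker UMIs, not clusters. Mural cells had at least 3 mural UMIs, fibroblasts and tubular segments at least 5 of their markers, and immune cells at least 2 *Ptprc* UMIs. Intervals are exact Poisson for sums and Clopper-Pearson for shares and ratios between libraries, at 95%, with a floor of 3 counts for a gene at 0. They cover counting error only. No doublet caller was run. Gene identifiers matched GENCODE vM21 for 32158 of 32285. The interval of the ratio was tested on simulated data. Python 3.11.15, numpy 2.4.6, scipy 1.17.1, pandas 2.3.3, R 4.3.3 and edgeR 4.0.16 (TMM scaling only) were used.

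The 9 genes and all lists were chosen with earlier results of these data known. Genes named in the text are the 9 genes, the pathway lists, the floxed, marker and HIF response genes, and for each of the 9 the 2 genes of highest correlation among those with at least 200 UMIs in ECs. Alternatives were other cell filters, other scalings, ambient subtraction and removal of single cells. Leaving out tubule-marker and mural-marker barcodes together, the splits of *Plvap*-positive ECs and the *Gja5* split were chosen after seeing the data.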

Additional observations from a re-analysis of the deposited data

Results flagged for a closer look

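For *Sox17*, *Gja4*, *Dll4* and *Notch1* the log2 ratio of the library labelled PHDTiEC over *Cre-* had opposite signs in *Plvap*-zero and *Plvap*-positive ECs, with counting intervals that did not overlap. The value in *Plvap*-zero ECs exceeded that in *Plvap*-positive ECs by 0.60 for *Sox17*, 0.59 for *Gja4*, 0.62 for *Dll4* and 0.70 for *Notch1*. These differences were not tested, since each genotype is 1 mouse. Without barcodes holding tubule or mural markers, the same difference was 0.11 for *Sox17*, 0.54 for *Gja4*, -0.07 for *Dll4* and 0.26 for *Notch1*, so that *Gja4*, the connexin 37 gene, came closest to its first value.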

How the results depend on the processing

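The log2 ratios of the 9 genes in all, *Plvap*-zero and *Plvap*-positive ECs were recomputed under 14 alternatives. Leaving out the *Plvap* limit of 2 UMIs for all ECs, which it cannot change, 290 of 360 values stayed within the first counting interval, 70 moved out of it and 41 changed sign. Without ambient subtraction as well, the counts were 289, 53 and 33 of 342. Among those that changed sign were *Sox17* in *Plvap*-zero ECs, which kept its sign in 7 of 13, and *Gja5* and *Hey1* in *Plvap*-positive ECs, which kept theirs in 9 of 14. *Notch1* and *Hey1* in *Plvap*-zero ECs, the values past 1.5-fold at first, kept their sign in all 13. In *Plvap*-positive ECs *Sox17* ranged from -0.92 to -0.25, *Gja4* from -0.97 to -0.43 and *Dll4* from -0.83 to -0.31, with the same sign in all 14 alternatives. The median of the 9 genes over all ECs, 0.15 at first, was -0.025 without tubule-marker barcodes, -0.031 without mural-marker barcodes, -0.15 without both and 1.01 with the ambient profile subtracted. In *Plvap*-positive ECs the median, -0.01 at first, was -0.28 without mural-marker barcodes, -0.33 without both and -0.38 with the ambient profile subtracted. The ambient profile was scaled to all tubule UMIs of a class, which counts other cells in a barcode as free RNA. It took 83.1% and 90.6% of all endothelial UMIs, 69.2% and 58.1% of the *Plvap*-positive and all of the *Plvap*-zero UMIs, so it overcorrects, scales the libraries unequally and gave no value for the latter. *Gja5* and *Hey1* rest on few molecules, 59 and 91 UMIs of *Gja5* and 63 and 91 of *Hey1* in *Plvap*-positive ECs. No paired analysis was possible because each genotype has 1 library, and for the same reason no replicate could be left out.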
